A study of Mus musculus with 14 samples.

Results

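Mouse leukemic stem cells made with the BCR-ABL oncogene were exposed to 20 µM prostaglandin E1 (PGE1) for 6 hours, and their transcriptome was compared with that of the same kind of cells kept in the vehicle DMSO for 6 hours. The comparison rests on 6 of the 14 libraries of the study, 3 with DMSO and 3 with PGE1. It covers every gene whose mean over these 6 libraries was at least 1 FPKM (fragments per kilobase of transcript, scaled to the number of mapped reads, a level that takes out gene length and library size). That rule kept 11250 of the 24463 genes listed. A further 7169 genes were detected below the minimum, and 6044 were at 0 in all 6 libraries. The lowest gene inside the rule had a mean of 1.0002 FPKM and the highest gene outside it 0.9978 FPKM.

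Both groups came from bone marrow of control (wild-type) mice. Lineage-negative cells were grown with serum, stem cell factor and thrombopoietin, infected 2 times with a retrovirus carrying p210 BCR-ABL, and sorted for GFP, c-Kit and Sca1 as lineage-negative leukemic stem cells before they were treated. By this description the cells were marrow transformed in culture. The labels do not say whether the replicates are separate mice, cultures or aliquots, so the p-values measure the spread between these libraries. DMSO replicate 1 is labelled Tcf1/Lef1-deficient in its genotype field, against its title and the design of the series. Its Tcf7 (Tcf1) level of 1.03 FPKM lay between those of DMSO replicate 2 (0.85 FPKM) and replicate 3 (1.53 FPKM). These levels are near the minimum and were not set beside the knockout libraries here, so they do not settle its genotype. PGE2 at the same dose and time, in 2 libraries, was used here only to set the size of a PGE1 difference against a related compound.

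PGE1 is a lipid mediator made from a polyunsaturated fatty acid by cyclooxygenase, and as the drug alprostadil it is used to widen blood vessels. It binds the EP receptors (Ptger1 to Ptger4) and the prostacyclin receptor (Ptgir). EP2, EP4 and the prostacyclin receptor couple to Gs, which turns on adenylyl cyclase, EP3 mostly couples to Gi, which opposes it, and EP1 signals through calcium. Cyclic AMP activates protein kinase A (PKA), PKA phosphorylates the transcription factor CREB, and CREB binds the palindrome TGACGTCA, the cAMP response element (CRE), in its target promoters. In blood-forming cells prostaglandin E is best known for its effects on stem cell homing, survival and expansion.

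The sorted libraries held the receptors of the sort and blood-cell identity: with DMSO, mean Kit was 26.1 FPKM, Ly6a (Sca1) 14.9 FPKM, Cd34 40.9 FPKM and Ptprc (CD45) 35.3 FPKM. They also held very high levels of neutrophil granule genes, with Mpo at 1331 FPKM and Elane at 1275 FPKM. Defining T cell and stromal genes were near 0, among them Cd3d at 0 to 0.342 FPKM and Col1a1 at 0.0481 to 0.171 FPKM over the 6 libraries. Reads assigned to genes numbered 12630498 to 13413769 per DMSO library and 11602901 to 13004447 per PGE1 library. The 3 DMSO libraries lay 0.168 to 0.226 apart, the 3 PGE1 libraries 0.254 to 0.342 apart, and a DMSO and a PGE1 library 0.52 to 0.653 apart (root mean square difference of log2(FPKM + 1) over all genes tested). PGE1 replicate 2 stood farthest from the other PGE1 libraries, at 0.333 and 0.342. Because these are bulk samples, fewer cells of a type and less RNA per cell cannot be told apart in anything below.

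The promoters of a few genes that moved are shown to give the letters that the pathways named here read. Each is part of a RefSeq window of 250 bases before the gene's start and 50 after it (GRCm38.p6, 5′ to 3′ on the gene's strand), ends at the gene's start or before it except where the motif runs over the start, as in Slc18a2, and shows the motif in capitals. The first 3 hold a CRE and belong to genes that rose after PGE1: Gzmc, a granzyme (chr14:56234658-56234764, minus strand, its CRE starting 57 bases before the gene's start), Slc18a2, the vesicular monoamine transporter (chr19:59260824-59260881, plus strand, 4 bases), and Btg2, an antiproliferative early gene (chr1:134079264-134079371, minus strand, 166 bases).
Gzmc: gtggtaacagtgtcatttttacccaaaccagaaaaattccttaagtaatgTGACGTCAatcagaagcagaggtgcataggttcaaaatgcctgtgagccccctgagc
Slc18a2: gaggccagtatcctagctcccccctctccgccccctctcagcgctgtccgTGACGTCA
Btg2: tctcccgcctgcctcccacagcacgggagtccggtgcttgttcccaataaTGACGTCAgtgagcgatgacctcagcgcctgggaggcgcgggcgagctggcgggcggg
The next 3 hold the AP-1 motif TGANTCA and belong to genes that fell: the matrix metalloproteinases Mmp10 (chr9:7502229-7502335, plus strand, 63 bases before the start) and Mmp13 (chr9:7272429-7272513, plus strand, 35 bases), and Tnfsf14, the cytokine LIGHT (chr17:57194285-57194391, minus strand, 160 bases).
Mmp10: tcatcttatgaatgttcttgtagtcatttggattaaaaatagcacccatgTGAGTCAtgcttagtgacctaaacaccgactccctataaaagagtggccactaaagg
Mmp13: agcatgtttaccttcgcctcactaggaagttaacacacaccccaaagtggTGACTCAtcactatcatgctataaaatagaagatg
Tnfsf14: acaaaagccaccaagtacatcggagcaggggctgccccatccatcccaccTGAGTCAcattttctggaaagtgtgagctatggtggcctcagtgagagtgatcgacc
The last holds the E-box CACGTG, the letters that Myc and Max bind, in Nop2, a nucleolar methyltransferase gene that fell (chr6:125131773-125131878, plus strand, 60 bases).
Nop2: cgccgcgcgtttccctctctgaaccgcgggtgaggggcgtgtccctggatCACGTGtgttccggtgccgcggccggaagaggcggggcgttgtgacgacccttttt

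These letters were not rare elsewhere. Of the 8498 tested genes that matched a window by symbol (250 bases before to 50 after the start, both strands searched), 3.8% held a CRE, 12.2% an E-box and 6.18% the AP-1 motif. Of the 184 matched genes that rose past 2-fold after PGE1, 3.26% held a CRE and 12% the AP-1 motif. Among the 338 matched genes that fell past 2-fold, 0.888% held a CRE, 17.2% an E-box and 10.9% the AP-1 motif. None of the 18 matched genes of the cAMP target list held the full palindrome in its window. In the nucleolar list 5 of 23 matched genes (21.7%) held an E-box. A match describes letters only, and these shares carry no test.

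PGE1 moved a large part of the transcriptome. At an adjusted p below 0.05 (limma on log2(FPKM + 1), Benjamini-Hochberg adjustment over all 11250 genes), 5030 genes were called (44.7%), of which 2419 rose (21.5%) and 2611 fell (23.2%). At a log2 difference of at least 1, called past 2-fold below, 262 rose (2.33%) and 472 fell (4.2%). The 2 groups did not overlap at all in 6429 genes (57.1%). Each list below is to be read against these shares. The median difference over all genes was 0.008. Log2 differences below are of log2(FPKM + 1) and understate the change of low genes, whereas folds are ratios of mean FPKM. Over the 5030 called genes the median size was 0.47 in PGE1 replicate 1, 0.55 in replicate 2 and 0.56 in replicate 3, and replicate 1 was the farthest of the 3 from DMSO for 14.5% of the called genes.

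**Figure D1:**
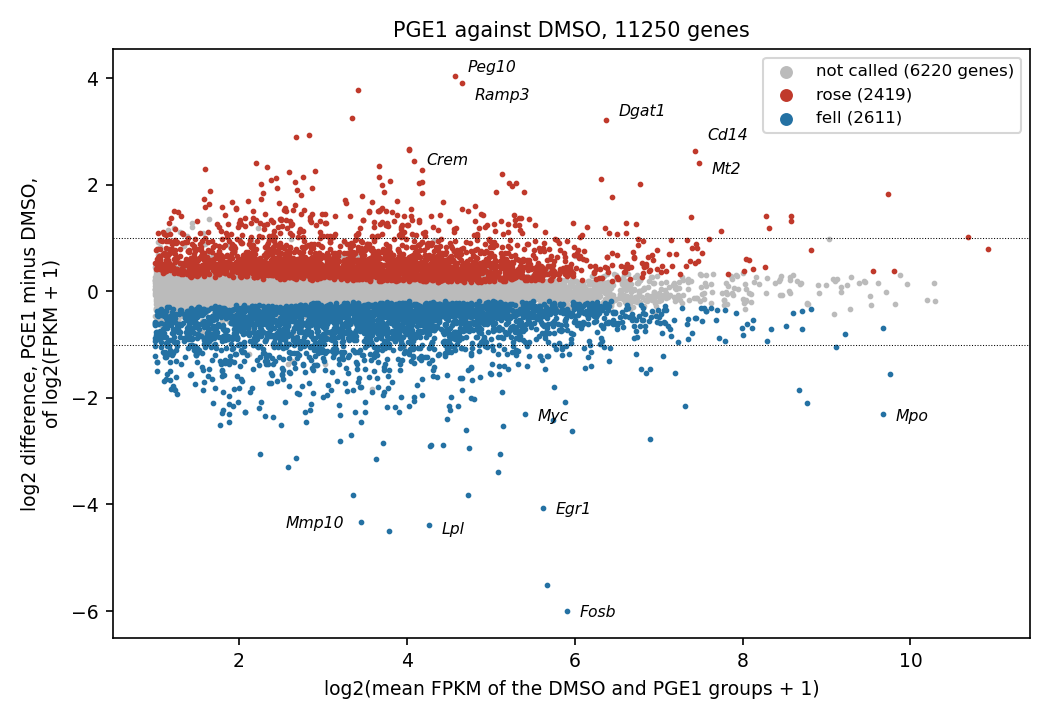
Each point is 1 of the 11250 genes tested: horizontal axis, log2 of the mean FPKM of the DMSO and PGE1 groups plus 1; vertical axis, PGE1 minus DMSO difference of log2(FPKM + 1); dotted lines mark 2-fold changes. Red, the 2419 genes that rose; blue, the 2611 that fell; the falls reach farther, to -6 for Fosb, than the rises, which end at 4.04 for Peg10.

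The receptors for PGE1 itself did not move as 1 group. Of the 9 prostanoid receptor genes, 5 were tested, 3 rose and 2 fell. Ptger2, the EP2 receptor, stood at 1.35, 1.65 and 1.51 FPKM with DMSO and 5.05, 5.94 and 5.44 FPKM with PGE1. The groups were far apart, and it rose 3.64-fold (log2 difference 1.37 ± 0.10, SE, adjusted p = 5.3e-05). Ptger3, the Gi-coupled EP3 receptor, measured 7.97, 8.07 and 7.85 FPKM with DMSO and 3.29, 2.62 and 3.21 FPKM with PGE1. All PGE1 libraries were under the DMSO libraries, and it fell 2.62-fold (log2 difference -1.16 ± 0.09, SE, adjusted p = 8.27e-05). Ptgir, the prostacyclin receptor, went from 7 ± 0.427 to 13.1 ± 1.02 FPKM (SD, n = 3; log2 difference 0.81 ± 0.08, SE, adjusted p = 0.000256). Ptger1, the EP1 receptor and the most abundant of the family per length, rose by 0.21 (adjusted p = 0.0319), from 28.5 ± 0.698 to 33 ± 1.36 FPKM, a call lost without any 1 library other than PGE1 replicate 2. Ptger4, the EP4 receptor, measured 4.78, 4.84 and 4.86 FPKM with DMSO and 3.43, 2.87 and 4.22 FPKM with PGE1, and its fall of 0.38 (adjusted p = 0.0312) was lost when any 1 of the DMSO libraries or PGE1 replicate 1 was left out. With DMSO the levels ran from Ptger1 down over Ptger3, Ptgir and Ptger4 to Ptger2, with no overlap between neighbours. With PGE1 the order was Ptger1, Ptgir, Ptger2, Ptger4 and Ptger3, and the libraries of Ptger4 and Ptger3 overlapped. Of the receptors under the minimum, Tbxa2r for thromboxane was at 0.97 ± 0.14 and 0.726 ± 0.161 FPKM (SD, n = 3; exact two-sided permutation p = 0.2) and Ptgdr2 at 0.534 and 0.234 FPKM (exact two-sided permutation p = 0.2), where 3 libraries against 3 can reach no less than 0.1. Ptgfr was near 0 and Ptgdr was listed at 0 in all 6 libraries.

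Several phosphodiesterases, the enzymes that break down cAMP, rose. Of 9 cAMP and cGMP phosphodiesterase genes tested, 5 rose and none fell. Pde3b measured 2.64, 3.51 and 3.31 FPKM with DMSO and 20.6, 17.8 and 22.5 FPKM with PGE1, a rise of 6.44-fold with no overlap (log2 difference 2.36 ± 0.12, SE, adjusted p = 1.04e-05). Pde4d, of the cAMP-specific family, measured 1.36, 1.61 and 1.47 FPKM with DMSO and 8.83, 8.57 and 10.4 FPKM with PGE1, 6.27-fold more (log2 difference 2.05 ± 0.10, SE, adjusted p = 1.04e-05). Pde7b measured 0.91, 1.16 and 0.974 FPKM with DMSO and 7.5, 6.64 and 9.48 FPKM with PGE1, 7.75-fold more (log2 difference 2.13 ± 0.13, SE, adjusted p = 3.05e-05). In all of these the lowest PGE1 library was above the highest DMSO library by several fold. Pde8a rose 1.48-fold (adjusted p = 0.00202). Of 12 adenylyl cyclase and Gs-coupling genes tested, 5 rose and 1 fell: Adcy6 rose 1.87-fold, and Grk5 and Arrb1, a receptor kinase and an arrestin that quench receptors, rose 1.65-fold and 1.46-fold, while the cyclase Adcy3 fell 2.25-fold (adjusted p = 0.000711).

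The PKA and CREB machinery list held 23 tested genes, of which 10 rose and 5 fell (3 when any 1 DMSO library was left out). Crem, whose inducible product ICER represses CRE promoters, measured 3.86, 4.52 and 4.17 FPKM with DMSO and 22.4, 34.6 and 26.3 FPKM with PGE1. It rose 6.64-fold, with PGE1 replicate 2 the highest (log2 difference 2.45 ± 0.15, SE, adjusted p = 2.64e-05). Sik1, a kinase that inhibits CREB coactivators, measured 3.32, 4.06 and 4.11 FPKM with DMSO and 12.2, 12.4 and 10.9 FPKM with PGE1, 3.09-fold more (log2 difference 1.41 ± 0.10, SE, adjusted p = 4.65e-05). Among the regulatory subunits of PKA, Prkar1a rose 1.56-fold and Prkar2b 1.62-fold, whereas Prkar2a went from 11.2 ± 0.437 to 4.62 ± 1.16 FPKM, a fall of 2.43-fold (log2 difference -1.14 ± 0.15, SE, adjusted p = 0.000623). Akap1, which anchors PKA at mitochondria, fell 2.21-fold.

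Of 26 tested genes listed as cAMP and CREB targets, 16 rose and 6 fell, with a median log2 difference of 1.09. Their summed level was 779 to 786 FPKM in the DMSO libraries and 1952 to 2075 FPKM in the PGE1 libraries. Ramp3, a receptor activity-modifying protein that turns the calcitonin-like receptor into an adrenomedullin receptor, measured 2.28, 2.52 and 1.68 FPKM with DMSO and 39.1, 54.2 and 46.3 FPKM with PGE1, a 21.5-fold rise (log2 difference 3.91 ± 0.14, SE, adjusted p = 2.65e-06). Vgf, a secreted neuropeptide precursor, measured 0.509, 0.897 and 0.549 FPKM with DMSO and 12.4, 9.41 and 13.2 FPKM with PGE1, 17.9-fold more (log2 difference 2.93 ± 0.15, SE, adjusted p = 1.1e-05). All 3 NR4A orphan nuclear receptors rose, Nr4a1 3.17-fold, Nr4a2 3.26-fold and Nr4a3 3.3-fold (Nr4a2 and Nr4a3 named after their values were seen). Per1 of the clock rose 2.25-fold, Cebpb 2.24-fold and Rgs2, which speeds up G protein switch-off, 2.85-fold, from 15.2 ± 0.793 to 43.1 ± 6.48 FPKM. The members that ran against the list were Id1, Id3, Il6, Sgk1, Cited2 and Per2, the last with a call lost without DMSO replicate 1 (adjusted p = 0.0569) or DMSO replicate 3 (adjusted p = 0.0736). Id1, an inhibitor of helix-loop-helix factors, measured 51.7, 44.8 and 41.9 FPKM with DMSO and 8.71, 5.43 and 2.7 FPKM with PGE1 and fell 8.22-fold (log2 difference -2.94 ± 0.30, SE, adjusted p = 0.000256), with the 3 PGE1 libraries themselves spread over 3-fold.

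**Figure D2:**
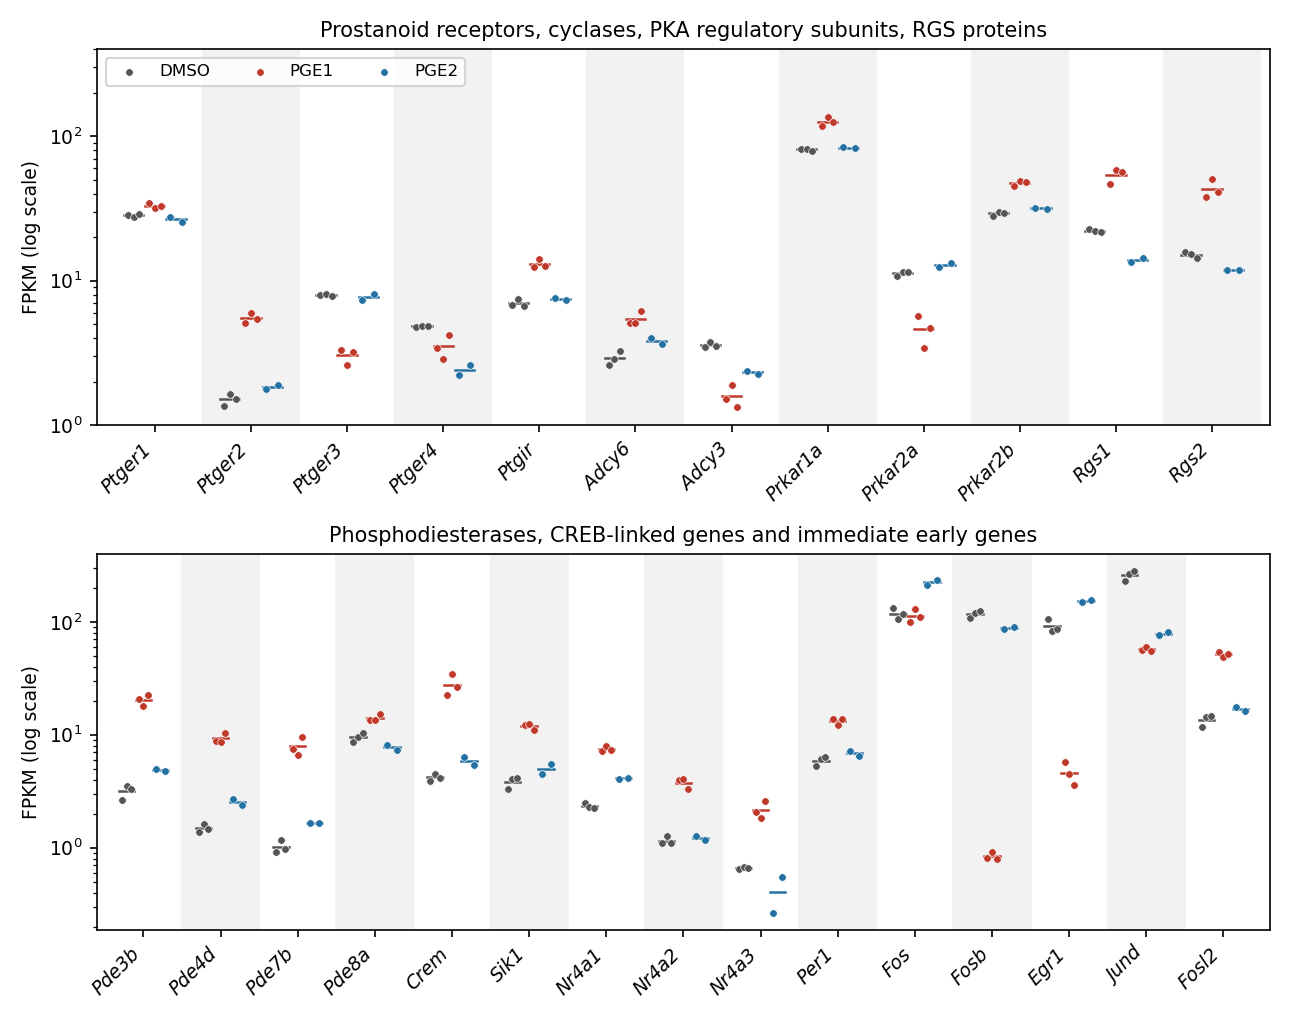
FPKM on a log axis for receptor and cAMP pathway genes in each library (grey, 3 DMSO; red, 3 PGE1; blue, 2 PGE2), with a bar at each group's mean. The phosphodiesterases Pde3b, Pde4d and Pde7b sit 6.44-, 6.27- and 7.75-fold higher with PGE1, with the 2 PGE2 libraries between the 2 groups.

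The immediate early genes, which answer growth factor and MAP kinase signalling within minutes, split. Fosb, an AP-1 subunit, gave the largest fall of all genes: 108, 120.0 and 124 FPKM with DMSO and 0.806, 0.923 and 0.794 FPKM with PGE1. It fell 139-fold (log2 difference -6.0 ± 0.08, SE, adjusted p = 2.12e-08), and the 3 libraries of each group lay close together. Fos, its paralog, did not pass the test: 131, 106 and 116 FPKM with DMSO and 99.7, 129.9 and 111 FPKM with PGE1 (log2 difference -0.06 ± 0.12, SE, adjusted p = 0.731; named after its values were seen). Egr1, a zinc finger factor, measured 106, 83.2 and 86.1 FPKM with DMSO and 5.74, 4.47 and 3.58 FPKM with PGE1, a 20-fold fall (log2 difference -4.06 ± 0.15, SE, adjusted p = 2.99e-06). Jund, the most abundant AP-1 subunit with DMSO, measured 230.4, 267 and 280.5 FPKM with DMSO and 56.7, 60.1 and 54.9 FPKM with PGE1, 4.53-fold less (log2 difference -2.16 ± 0.09, SE, adjusted p = 5.57e-06). Fosl2, another AP-1 subunit, measured 11.8, 14.3 and 14.5 FPKM with DMSO and 54.6, 48.9 and 51.4 FPKM with PGE1, 3.81-fold more (log2 difference 1.86 ± 0.09, SE, adjusted p = 1.05e-05). Of 14 AP-1 genes tested 4 rose and 5 fell, and their summed level was 716 to 767 FPKM with DMSO against 442 to 503 FPKM with PGE1. Of 22 other immediate early genes 5 rose (3 without DMSO replicate 2 or without DMSO replicate 3) and 10 fell. Besides Egr1, Klf2 fell 5.37-fold, Myc 4.93-fold, Dusp1 2.34-fold and Klf4 2.39-fold, whereas Btg2 rose 2.72-fold (log2 difference 1.34 ± 0.08, SE, adjusted p = 3.22e-05). Feedback inhibitors of MAP kinase fell in 5 of 9 tested genes and rose in 2 (1 without DMSO replicate 1, DMSO replicate 3 or PGE1 replicate 3): Dusp7 measured 7.88, 7.29 and 7.42 FPKM with DMSO and 2.17, 1.6 and 1.97 FPKM with PGE1, 3.94-fold less, and Spry2 and Spred1 fell 2.41- and 2.21-fold, while Dusp6, an ERK phosphatase, rose 1.29-fold.

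**Figure D3:**
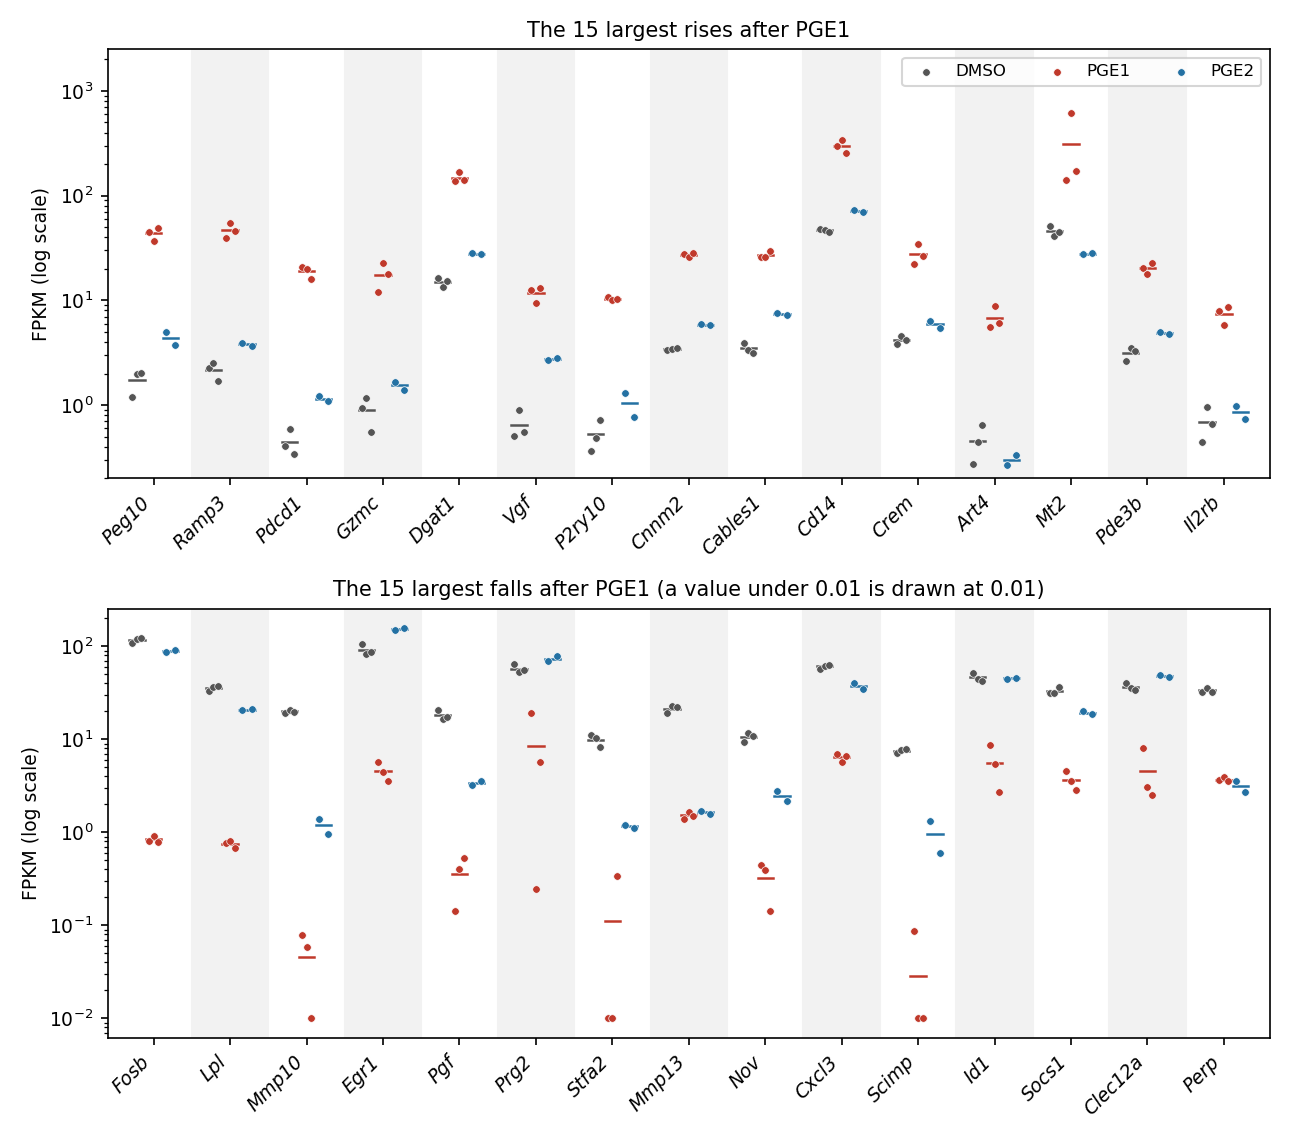
FPKM on a log axis of the 15 genes with the largest rises (top) and the largest falls (bottom) in each library, with a bar at each group's mean (grey, 3 DMSO; red, 3 PGE1; blue, 2 PGE2). Pdcd1, Vgf, P2ry10 and Art4 are among the rises that start under 1 FPKM in all DMSO libraries. The genes that fell start at means of 7.52 FPKM (Scimp) or more, and the PGE1 libraries of Mt2 and Prg2 are widely spread.

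The largest rises outside the cAMP list were of genes with varied roles. Peg10, an imprinted gene derived from a retrotransposon, had the largest log2 difference of all genes that rose. It measured 1.19, 1.99 and 2.02 FPKM with DMSO and 45.3, 37.2 and 49.1 FPKM with PGE1, 25.3-fold more (log2 difference 4.04 ± 0.15, SE, adjusted p = 2.99e-06). Its neighbour and fellow imprinted gene Sgce rose 2.11-fold, and of 7 imprinted genes tested 4 rose and 2 fell. Pdcd1, the immune checkpoint receptor PD-1, measured 0.408, 0.593 and 0.339 FPKM with DMSO and 20.6, 20.1 and 16 FPKM with PGE1, 42.3-fold more (log2 difference 3.78 ± 0.12, SE, adjusted p = 1.83e-06). Gzmc measured 0.943, 1.18 and 0.55 FPKM with DMSO and 12, 22.7 and 17.8 FPKM with PGE1, 19.7-fold more (log2 difference 3.26 ± 0.22, SE, adjusted p = 4.47e-05). No PGE1 library of any of these came near a DMSO library. P2ry10, a lysophospholipid receptor, measured 0.361, 0.483 and 0.727 FPKM with DMSO and 10.7, 10 and 10.2 FPKM with PGE1. Art4, an ADP-ribosyltransferase of the red cell surface, measured 0.272, 0.443 and 0.647 FPKM with DMSO and 5.51, 8.77 and 6.03 FPKM with PGE1. Both stayed under 1 FPKM in all DMSO libraries. Cables1, a cyclin-dependent kinase substrate, rose 7.78-fold and Cnnm2, a magnesium transporter, 7.93-fold, the latter with the smallest error among the 15 largest rises (log2 difference 2.67 ± 0.07, SE, adjusted p = 7.22e-07). Mt2, a metallothionein, measured 51.4, 41.5 and 45.1 FPKM with DMSO and 140.4, 617 and 171 FPKM with PGE1, 6.73-fold more on average (log2 difference 2.4 ± 0.49, SE, adjusted p = 0.00549), but PGE1 replicate 2 carried over 3 times the level of either other PGE1 library.

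Several lymphoid genes were among the rises. Il2rb, the beta chain of the interleukin 2 and 15 receptors, measured 0.447, 0.947 and 0.659 FPKM with DMSO and 7.94, 5.87 and 8.58 FPKM with PGE1, 10.9-fold more (log2 difference 2.33 ± 0.16, SE, adjusted p = 4.72e-05). Gzma rose 9.52-fold and Ccr7, the lymph node homing receptor, 5.53-fold, from 5.24 ± 0.783 to 29 ± 2.18 FPKM. Of the 18 T and NK cell markers matched, 13 were under the minimum, 3 of the 5 tested rose and none fell. That count depends on the minimum, which Il2rb passed only through its PGE1 libraries. With no minimum 6 of 18 rose and 1 fell. Prf1, left out by the minimum, was at 0.887 to 1.16 FPKM with DMSO and 0.394 to 0.487 FPKM with PGE1. The list summed to 15.5 to 15.8 FPKM with DMSO and 27.4 to 32.3 FPKM with PGE1. The defining T cell genes Cd3d, Cd3e and Cd3g were at 0 to 0.137 FPKM with DMSO and at 0.0385 to 0.535 FPKM with PGE1. The part of these cells in the rises was not tested.
Of 9 genes tested in the checkpoint and costimulation list, 6 rose and 2 fell. The list also holds the granzyme Gzmc, which is neither and is counted among the 6. Pdcd1, Gzmc and Cd86 averaged under 1 FPKM with DMSO and passed the minimum only through their PGE1 libraries. The count of rises in this list was therefore favoured by the minimum. Cd86 measured 0.95, 1.07 and 0.718 FPKM with DMSO and 6.1, 7.02 and 7.03 FPKM with PGE1, 7.35-fold more (log2 difference 2.01 ± 0.11, SE, adjusted p = 1.55e-05), and Cd274 (PD-L1) rose 1.91-fold, while Tnfrsf9 and Havcr2 fell 1.67- and 1.67-fold.

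Many genes that answer cytokine signalling fell. Of 18 STAT5 targets and feedback genes tested, 11 fell and 5 rose. Socs1, an inhibitor of JAK kinases, measured 31.7, 31.8 and 36.1 FPKM with DMSO and 4.51, 3.52 and 2.84 FPKM with PGE1, 9.16-fold less (log2 difference -2.9 ± 0.13, SE, adjusted p = 7.41e-06). Socs3 measured 36.3, 36 and 37.6 FPKM with DMSO and 6.56, 6.38 and 5.45 FPKM with PGE1, 5.98-fold less (log2 difference -2.4 ± 0.08, SE, adjusted p = 1.94e-06), and Cish, the standard STAT5 target, 35.3, 37.4 and 35.8 FPKM with DMSO and 7.45, 8.33 and 6.29 FPKM with PGE1, 4.92-fold less (log2 difference -2.16 ± 0.10, SE, adjusted p = 6.85e-06). In all of these the DMSO libraries lay at several times the highest PGE1 library. The genes for the factors rose: Stat3 1.78-fold, Stat5b 1.62-fold and Stat5a 1.19-fold (adjusted p = 0.0368, a call lost without any 1 DMSO library or PGE1 replicate 3). Of 15 genes of the fusion's signalling and of the sort, 7 rose and 2 fell: Kit rose 1.62-fold and the Src family kinase Lyn 1.42-fold, and its relative Fgr fell 2.32-fold. The BCR-ABL transgene itself was not analysed here.

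Chemokines fell as a list: 11 of 14 tested fell and 1 rose (0 without DMSO replicate 2, DMSO replicate 3 or PGE1 replicate 2), with a median of -1.35. Cxcl3, a neutrophil attractant, measured 57.1, 62 and 62.7 FPKM with DMSO and 6.96, 5.69 and 6.68 FPKM with PGE1, 9.4-fold less (log2 difference -3.05 ± 0.09, SE, adjusted p = 1.13e-06). Ccl3, an attractant of monocytes and T cells, measured 44.2, 43.1 and 44.2 FPKM with DMSO and 7.13, 4.87 and 7.41 FPKM with PGE1, 6.78-fold less. Its close relative Ccl4 measured 62.4, 58.9 and 57.1 FPKM with DMSO and 9.37, 11.7 and 7.93 FPKM with PGE1, 6.17-fold less, and in all 3 genes the groups lay far apart. Ccl9 was the most abundant of the 4 named here and went from 217 ± 1.83 to 74.4 ± 6.73 FPKM (log2 difference -1.54 ± 0.08, SE, adjusted p = 1.64e-05). Among 15 cytokines and growth factors 9 fell and 5 rose. Pgf, placental growth factor, measured 20.7, 16.4 and 17.4 FPKM with DMSO and 0.144, 0.405 and 0.526 FPKM with PGE1, 50.8-fold less (log2 difference -3.82 ± 0.14, SE, adjusted p = 2.43e-06). Hbegf, an EGF receptor ligand, fell 10.5-fold and Tnfsf14 5.16-fold, while Il15 and Il18 rose 3- and 2.89-fold and Vegfa 2.27-fold. Nov (CCN3), a matricellular protein, measured 9.24, 11.6 and 10.9 FPKM with DMSO and 0.442, 0.39 and 0.141 FPKM with PGE1, 32.6-fold less (log2 difference -3.13 ± 0.13, SE, adjusted p = 4.3e-06).

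The matrix metalloproteinases gave some of the deepest falls. Mmp10 measured 19.4, 20.8 and 19.5 FPKM with DMSO and 0.0786, 0.0591 and 0 FPKM with PGE1, resting on 2266 reads in the DMSO libraries and 5 in the PGE1 libraries (log2 difference -4.32 ± 0.08, SE, adjusted p = 1.18e-07). Mmp13 measured 19, 22.7 and 22 FPKM with DMSO and 1.39, 1.67 and 1.51 FPKM with PGE1, 13.9-fold less (log2 difference -3.14 ± 0.09, SE, adjusted p = 1.67e-06), and Mmp12, macrophage elastase, fell 3.27-fold. In the list of matrix proteases and the urokinase system 7 of 12 tested fell, among them Plau, the urokinase (3.4-fold), and 3 rose, led by Adam8 (1.48-fold). Tgfbi, a matrix adaptor, fell 5.56-fold (log2 difference -2.41 ± 0.09, SE, adjusted p = 2.54e-06; named after its values were seen). Perp, a p63 and p53 target of cell contacts, measured 32.1, 35.9 and 32.5 FPKM with DMSO and 3.61, 3.88 and 3.58 FPKM with PGE1, 9.07-fold less (log2 difference -2.88 ± 0.07, SE, adjusted p = 7.22e-07), and the adaptor gene Scimp fell from 7.08, 7.6 and 7.88 FPKM (521 reads) to 2 reads in the 3 PGE1 libraries (log2 difference -3.05 ± 0.10, SE, adjusted p = 1.83e-06). Stfa2 of the stefin A family, cysteine protease inhibitors clustered in near-identical copies, went from 275 reads to 3 (log2 difference -3.3 ± 0.15, SE, adjusted p = 8.77e-06). The clone-named genes Gm5483, Gm5416 and 2010005H15Rik, left out of the named list by its rule, fell by 5.52, 4.5 and 3.83 on the same log2 scale, and reads of near-identical copies may have been split among genes of such families.

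Myc and most of the ribosome biogenesis genes tested fell. Myc measured 73, 66.3 and 67.1 FPKM with DMSO and 21.6, 9.4 and 10.9 FPKM with PGE1, 4.93-fold less (log2 difference -2.31 ± 0.26, SE, adjusted p = 0.000344), with PGE1 replicate 1 the highest of its group. Of 11 Myc network genes tested 5 rose, 3 fell and 3 were not called. The Myc antagonists Mxd1, Mxi1 and Mxd4 rose, Mxd1 2.87-fold (log2 difference 1.41 ± 0.07, SE, adjusted p = 1.42e-05), Mxi1 1.62-fold and Mxd4 1.6-fold. Besides Myc, Mlx fell 1.52-fold and Max, the partner of both Myc and its antagonists, 1.15-fold (adjusted p = 0.0397, a call lost without any 1 library other than PGE1 replicate 2). Of 28 nucleolar ribosome biogenesis genes tested, 27 fell and none rose, with a median of -1.12, and their sum went from 1088 to 1190.1 FPKM over the DMSO libraries to 512 to 618 FPKM over the PGE1 libraries. Nop56, of the box C/D particle that methylates ribosomal RNA, measured 54, 49.9 and 48.5 FPKM with DMSO and 21.6, 17.1 and 17 FPKM with PGE1, 2.73-fold less (log2 difference -1.41 ± 0.10, SE, adjusted p = 5.75e-05). Nop2 measured 39.1, 39.4 and 37.2 FPKM with DMSO and 15.7, 12.9 and 12.8 FPKM with PGE1, 2.79-fold less (log2 difference -1.42 ± 0.09, SE, adjusted p = 3.22e-05). The gene that did not pass was Npm1 (-0.17, adjusted p = 0.249). Srm, the spermidine synthase and a textbook Myc target, measured 116, 101 and 102 FPKM with DMSO and 26.7, 13.2 and 12.2 FPKM with PGE1, 6.1-fold less (log2 difference -2.62 ± 0.25, SE, adjusted p = 0.0002; named after its values were seen), and Odc1, of the same polyamine pathway, fell 1.58-fold.

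Many genes of protein synthesis and folding also fell. Of 21 aminoacyl-tRNA synthetases 17 fell and 1, Qars, rose (1.23-fold; 2 rose without PGE1 replicate 1 or PGE1 replicate 2), with a median of -0.59. Farsb fell 2.08-fold and Gars 1.68-fold. In the list for unfolded protein and amino acid stress 21 of 25 fell. Hspa5 (BiP), the main chaperone of the endoplasmic reticulum, measured 418, 419.8 and 394 FPKM with DMSO and 229.7, 215 and 198 FPKM with PGE1, 1.92-fold less (log2 difference -0.94 ± 0.09, SE, adjusted p = 0.000212), and Sdf2l1 fell 2.92-fold. The 2 that rose (1 without DMSO replicate 2, DMSO replicate 3, PGE1 replicate 2 or PGE1 replicate 3) were Ddit3 (CHOP) and Ppp1r15a (GADD34), at 1.33- and 1.28-fold. Of 12 serine and one-carbon genes 10 fell: Shmt1 measured 21, 19.5 and 18.7 FPKM with DMSO and 6.98, 3.57 and 3.85 FPKM with PGE1, 4.11-fold less (log2 difference -1.88 ± 0.20, SE, adjusted p = 0.000271), and Phgdh, the first enzyme of serine synthesis, fell 2.44-fold. The 2 that rose (1 without DMSO replicate 2) were the subunits of the cystine transporter, Slc7a11 (2.37-fold) and Slc3a2 (1.3-fold). Of 26 glycolysis and hypoxia genes 17 fell and 4 rose, the latter led by Ddit4 (REDD1), an inhibitor of mTORC1, which measured 31.8, 27.7 and 27.8 FPKM with DMSO and 115, 135 and 136 FPKM with PGE1, 4.42-fold more (log2 difference 2.1 ± 0.09, SE, adjusted p = 6.43e-06). For oxidative phosphorylation subunits the count depended on the library: 6 of 25 fell, 14 without PGE1 replicate 2, and 0 to 2 without any other 1 library.

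Genes of DNA replication and of mitosis were counted apart. Of 28 G1/S and DNA replication genes 17 fell and 2 rose (1 without any 1 library). Ccnd1, cyclin D1, measured 7.09, 6.86 and 6.34 FPKM with DMSO and 0.946, 0.553 and 0.639 FPKM with PGE1, 9.48-fold less (log2 difference -2.19 ± 0.11, SE, adjusted p = 1.29e-05), and Ccne1 fell 3.11-fold. Of 24 G2/M and mitosis genes none fell and 6 rose, 12 without PGE1 replicate 2, for example Cdc25b (1.94-fold) and Cdc20 (1.63-fold). Of 6 CDK inhibitors tested 2 rose, 1 fell and 3 were not called. Cdkn1b (p27) measured 13.7, 13.7 and 14.3 FPKM with DMSO and 29.1, 32.1 and 33.4 FPKM with PGE1, 2.27-fold more (log2 difference 1.12 ± 0.07, SE, adjusted p = 3.5e-05), Cdkn1a (p21) rose 1.5-fold, and Cdkn1c (p57) fell 1.59-fold (adjusted p = 0.00845). Of 15 BCL2 family genes 7 rose (4 without DMSO replicate 2 or DMSO replicate 3) and 2 fell. The rises with the largest sizes were killers of the BH3-only class: Bcl2l11 (BIM) measured 4.67, 6.06 and 6.25 FPKM with DMSO and 18.5, 17.6 and 19.6 FPKM with PGE1, 3.28-fold more (log2 difference 1.56 ± 0.11, SE, adjusted p = 4.69e-05), Bmf rose 3.5-fold and Bbc3 (PUMA) 2.33-fold. Of the protectors, Bcl2l1 (BCL-XL) fell 1.68-fold and Mcl1 rose 1.21-fold (adjusted p = 0.0224, a call lost without DMSO replicate 2 or DMSO replicate 3). Bid, also BH3-only, fell 1.87-fold. Of 18 FoxO factors and targets 11 rose and 3 fell, Bcl2l11, Ddit4 and S1pr1 being among the risers, and S1pr1, the receptor that guides cells out of tissue, measured 1.33, 1.45 and 1.73 FPKM with DMSO and 9.8, 10.5 and 10.1 FPKM with PGE1, 6.72-fold more (log2 difference 2.15 ± 0.09, SE, adjusted p = 5.07e-06). The fall of Klf2 (24, 19.3 and 20.2 FPKM with DMSO and 4.58, 4.09 and 3.17 FPKM with PGE1; log2 difference -2.17 ± 0.13, SE, adjusted p = 2.55e-05), Txnip (2.06-fold) and Trib1 (2.04-fold) ran against this list.

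Many of the genes that mark granulocytes and macrophages fell. Of 10 primary granule genes, made in early neutrophil precursors, 9 fell and none rose, with a median of -1.39. Mpo, myeloperoxidase, measured 1472, 1268 and 1252 FPKM with DMSO and 494, 206 and 187 FPKM with PGE1, 4.5-fold less (log2 difference -2.31 ± 0.34, SE, adjusted p = 0.00119). Elane, neutrophil elastase, measured 1440.0, 1209 and 1176 FPKM with DMSO and 623, 396 and 324 FPKM with PGE1, 2.85-fold less (log2 difference -1.56 ± 0.23, SE, adjusted p = 0.00136). PGE1 replicate 1 held the most of both, but stayed well under the lowest DMSO library. The list summed to 4821 to 5667 FPKM with DMSO and 1609.8 to 2706 FPKM with PGE1. Of 14 late granule genes 7 fell (12 without PGE1 replicate 2) and 1 rose: Camp, the cathelicidin, measured 44.3, 32.9 and 38.1 FPKM with DMSO and 6.53, 13.3 and 5.24 FPKM with PGE1, 4.59-fold less (log2 difference -2.16 ± 0.28, SE, adjusted p = 0.000688), and Chil3 rose 1.65-fold. The sums of this list overlapped, at 1678 to 1983 FPKM with DMSO and 1159.8 to 1763 FPKM with PGE1. Gfi1, the repressor that drives neutrophil commitment, measured 21.7, 20.6 and 20.7 FPKM with DMSO and 10.5, 5.62 and 5.65 FPKM with PGE1, 2.9-fold less (log2 difference -1.47 ± 0.20, SE, adjusted p = 0.000838). All 3 eosinophil genes tested fell, Prg3 with a call lost without DMSO replicate 1 (adjusted p = 0.0608) or with a pseudocount of 0.1 (adjusted p = 0.0699). Of the 11 eosinophil markers matched, 8 were under the minimum, and the count depends on it. With no minimum 7 of 10 fell, and at a minimum of 5 FPKM 1 of 1 fell. Prg2, the major basic protein, measured 64.2, 52.4 and 55.6 FPKM with DMSO and 19.3, 0.245 and 5.73 FPKM with PGE1, 6.81-fold less on average (log2 difference -3.39 ± 0.85, SE, adjusted p = 0.0133), but the ratio between its PGE1 libraries was larger than that between the groups. PGE1 replicate 2, at the bottom for Prg2, was also lowest for Epx, eosinophil peroxidase (3.22, 3.35 and 4.03 FPKM with DMSO and 1.77, 0 and 0.212 FPKM with PGE1).

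In the monocyte and macrophage list 23 genes were tested, of which 15 fell and 1 rose, and the sums of the list overlapped, at 1411 to 1705 FPKM with DMSO and 1270.3 to 1658 FPKM with PGE1. Adgre1 (F4/80) measured 17.8, 16.7 and 17.9 FPKM with DMSO and 3.52, 3.24 and 3.36 FPKM with PGE1, 5.17-fold less (log2 difference -2.08 ± 0.07, SE, adjusted p = 2.43e-06), and Irf8, the factor of monocyte fate, 26.7, 23.5 and 23.5 FPKM with DMSO and 9.22, 10.2 and 9.23 FPKM with PGE1, 2.57-fold less (log2 difference -1.28 ± 0.08, SE, adjusted p = 3.27e-05). Clec12a, a myeloid inhibitory lectin, fell 8.07-fold (log2 difference -2.89 ± 0.31, SE, adjusted p = 0.000307). Cd14, the lipopolysaccharide co-receptor, was the one that rose (2 genes without PGE1 replicate 1 and 3 without PGE1 replicate 2): 47.7, 47.4 and 44.7 FPKM with DMSO and 295, 339.5 and 255 FPKM with PGE1, 6.37-fold more (log2 difference 2.64 ± 0.11, SE, adjusted p = 4.31e-06).  Of 13 Toll-like receptor pathway genes tested, 9 were not called and 4 rose, Cd14 among them, with a median of 0.07. The other risers were Tlr8 (3.81-fold), Tlr6 (2.38-fold) and Tlr2 (1.9-fold).

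Progenitor, mast cell and megakaryocyte genes rose in part. Kit measured 23.2, 27.6 and 27.5 FPKM with DMSO and 42.7, 35.4 and 48.5 FPKM with PGE1, 1.62-fold more (log2 difference 0.67 ± 0.12, SE, adjusted p = 0.00348). Cd34 measured 42.7, 40.5 and 39.5 FPKM with DMSO and 20.3, 19.1 and 18.8 FPKM with PGE1, 2.11-fold less (log2 difference -1.04 ± 0.07, SE, adjusted p = 3.5e-05). Ly6a did not pass the test (-0.19, adjusted p = 0.351). Meis1, a self-renewal factor, measured 6.7, 6.68 and 7.12 FPKM with DMSO and 14.2, 14.9 and 16.4 FPKM with PGE1, 2.22-fold more (log2 difference 1.04 ± 0.08, SE, adjusted p = 6.44e-05), and Hoxa9, its usual partner in leukemia, fell by 0.27 (adjusted p = 0.0303, a call lost without any 1 DMSO library or PGE1 replicate 1). Of 30 stem cell and self-renewal genes 13 rose and 7 fell. Of 16 mast cell and basophil markers 9 rose and 2 fell (1 without any 1 library other than PGE1 replicate 2): Hdc, the histamine-forming enzyme, measured 40.1, 33.7 and 34.2 FPKM with DMSO and 78.3, 91.3 and 96.3 FPKM with PGE1, 2.46-fold more (log2 difference 1.28 ± 0.10, SE, adjusted p = 8.58e-05), Cma1 (chymase) rose 3.13-fold and Cpa3 1.82-fold. Slc18a2, which loads histamine and serotonin into granules, measured 5.23, 6.32 and 6.48 FPKM with DMSO and 25.7, 29.2 and 29.9 FPKM with PGE1, 4.7-fold more (log2 difference 2.06 ± 0.10, SE, adjusted p = 8.89e-06; named after its values were seen). Of 16 megakaryocyte and platelet markers 8 rose and 2 fell; Itga2b (CD41) rose 2.06-fold, and Ppbp fell 2.58-fold. Gata1, the erythroid and megakaryocyte factor, measured 7.85, 7.01 and 6.14 FPKM with DMSO and 19.3, 21.8 and 20.7 FPKM with PGE1, 2.94-fold more (log2 difference 1.43 ± 0.10, SE, adjusted p = 4.23e-05), and Klf1 and Car2 rose 4.92- and 3.79-fold, whereas Hbb-b1 and Tfrc fell 3.8- and 2.64-fold. Prss34 was among the mast cell and basophil markers that fell, with a call lost without any 1 library other than PGE1 replicate 2. The sums of the mast cell list overlapped, at 1159.7 to 1216 FPKM with DMSO and 1173 to 1329 FPKM with PGE1. The megakaryocyte list summed to 494 to 549.5 FPKM with DMSO and 609 to 778 FPKM with PGE1.

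**Figure D4:**
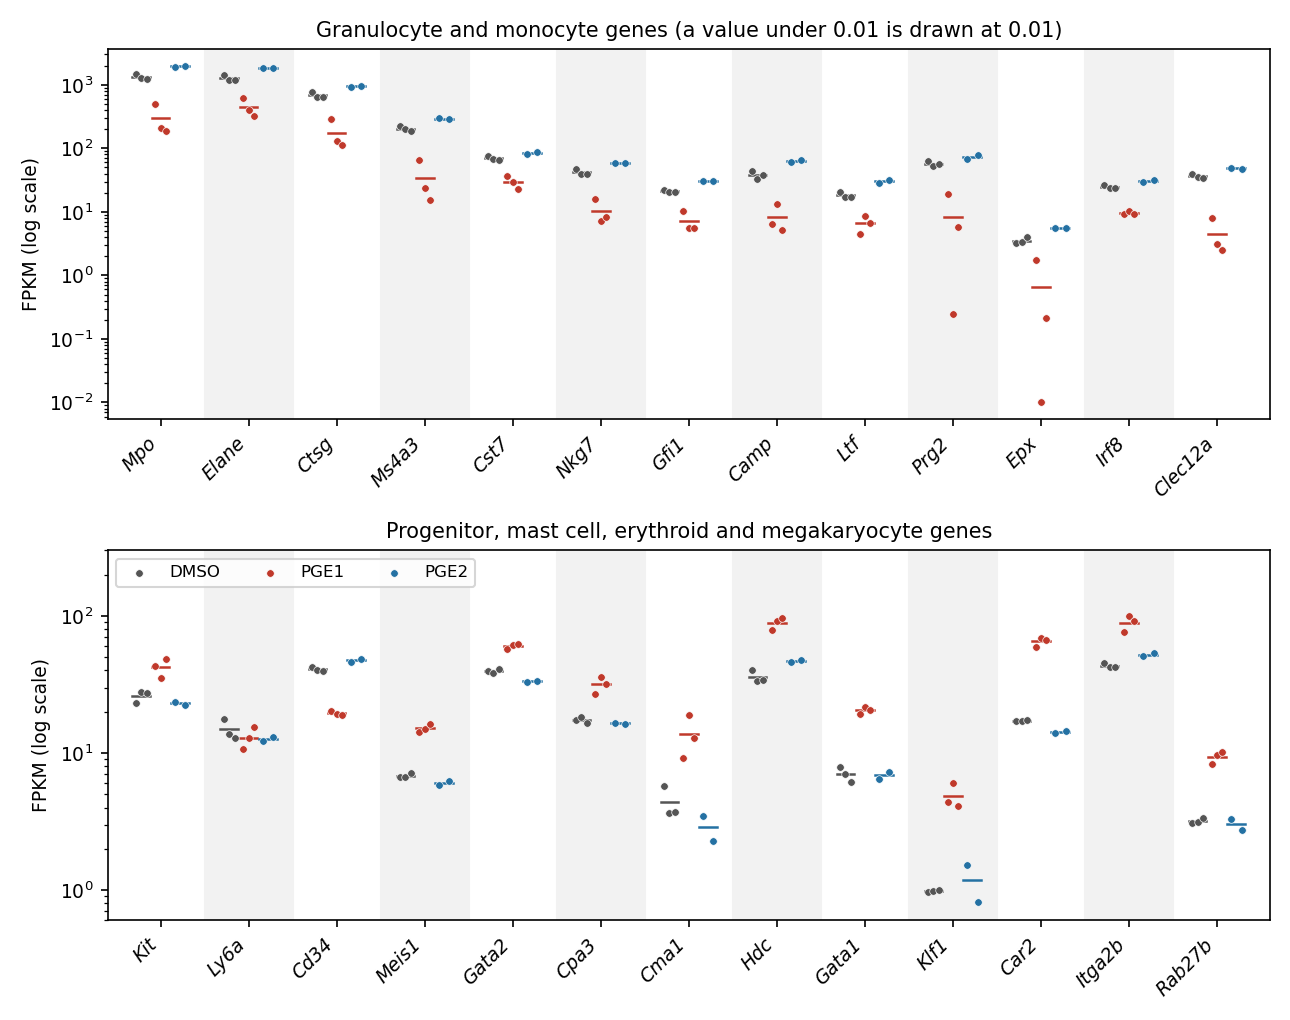
FPKM on a log axis of granulocyte and monocyte genes (top) and of progenitor, mast cell, erythroid and megakaryocyte genes (bottom) in each library, with a bar at each group's mean (grey, 3 DMSO; red, 3 PGE1; blue, 2 PGE2). All granule genes shown are lower with PGE1, by 4.5-fold for Mpo and 2.85-fold for Elane, while Gata1 is 2.94-fold and Hdc 2.46-fold higher.

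Genes of lipid storage and lipid making changed. Dgat1, the enzyme of the last step of triglyceride synthesis, measured 16.3, 13.4 and 15.3 FPKM with DMSO and 138, 168 and 140.0 FPKM with PGE1, 9.9-fold more (log2 difference 3.22 ± 0.10, SE, adjusted p = 1.83e-06). Lpl, lipoprotein lipase, which frees fatty acids outside the cell, measured 33, 36.1 and 37.8 FPKM with DMSO and 0.774, 0.81 and 0.67 FPKM with PGE1, 47.4-fold less (log2 difference -4.39 ± 0.08, SE, adjusted p = 1.18e-07). Neither gene showed any overlap between groups. The other genes of this pathway named here were chosen after their values were seen. G0s2 and Hilpda, inhibitors of the lipase Atgl, rose 4.7- and 4.16-fold, Plin2, which coats lipid droplets, rose 1.64-fold, and Dgat2 and Pnpla2 (Atgl) did not pass the test (-0.12 and 0.21). Of 27 cholesterol and fatty acid synthesis genes 16 rose. Cyp51, the lanosterol demethylase of cholesterol synthesis, measured 21.2, 20.5 and 19.5 FPKM with DMSO and 38.4, 41 and 36.6 FPKM with PGE1, 1.9-fold more (log2 difference 0.89 ± 0.07, SE, adjusted p = 8.12e-05), and Msmo1, of a later step, rose 1.74-fold. The 2 that fell (1 without DMSO replicate 1, 2 or 3 or PGE1 replicate 3) were Fasn and Acaca of fatty acid synthesis, 1.56- and 1.57-fold. Among 15 genes of prostanoid and leukotriene metabolism 4 rose and 5 fell. Ptgs2 (COX-2) rose 1.87-fold and Ptgr1, which inactivates prostaglandins and leukotriene B4, 2.15-fold, and Lta4h, which makes leukotriene B4, measured 188, 168 and 165 FPKM with DMSO and 83.6, 55.7 and 51.8 FPKM with PGE1, 2.73-fold less (log2 difference -1.46 ± 0.17, SE, adjusted p = 0.000412). The receptor for that product, Ltb4r1, fell 3.84-fold.

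Stress and inflammation lists went in different directions. Of 17 NRF2 targets 10 rose and none fell, with Nqo1 at 18.4, 19.7 and 21 FPKM with DMSO and 41.4, 57.5 and 69.8 FPKM with PGE1 (log2 difference 1.44 ± 0.17, SE, adjusted p = 0.000441) and Hmox1, heme oxygenase, at 182, 199 and 197 FPKM with DMSO and 398, 539.8 and 394 FPKM with PGE1 (log2 difference 1.18 ± 0.14, SE, adjusted p = 0.000391). Of 18 NF-kB genes 11 rose and 2 fell (1 without any 1 DMSO library or PGE1 replicate 3): Bcl3, Tnfaip3 (A20) and Birc3 rose 2.26-, 2.27- and 1.88-fold and Icam1 fell 1.72-fold. Of 22 interferon-stimulated genes 11 fell and 5 rose; Irf7 fell 2.62-fold and Ifi203 3.29-fold, and Rsad2 and Oasl1 rose 1.91- and 1.95-fold. Of 19 p53 targets 10 rose and 3 fell, the first led by Trp53inp1 (3.15-fold). Tcf7, the Tcf1 gene after which the study's knockout is named, measured 1.03, 0.85 and 1.53 FPKM with DMSO and 7.37, 5.21 and 7.4 FPKM with PGE1, 5.86-fold more (log2 difference 1.84 ± 0.16, SE, adjusted p = 0.00013), and Lef1 was under the minimum at 0.209 and 0.318 FPKM (exact two-sided permutation p = 0.3).

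**Figure D5:**
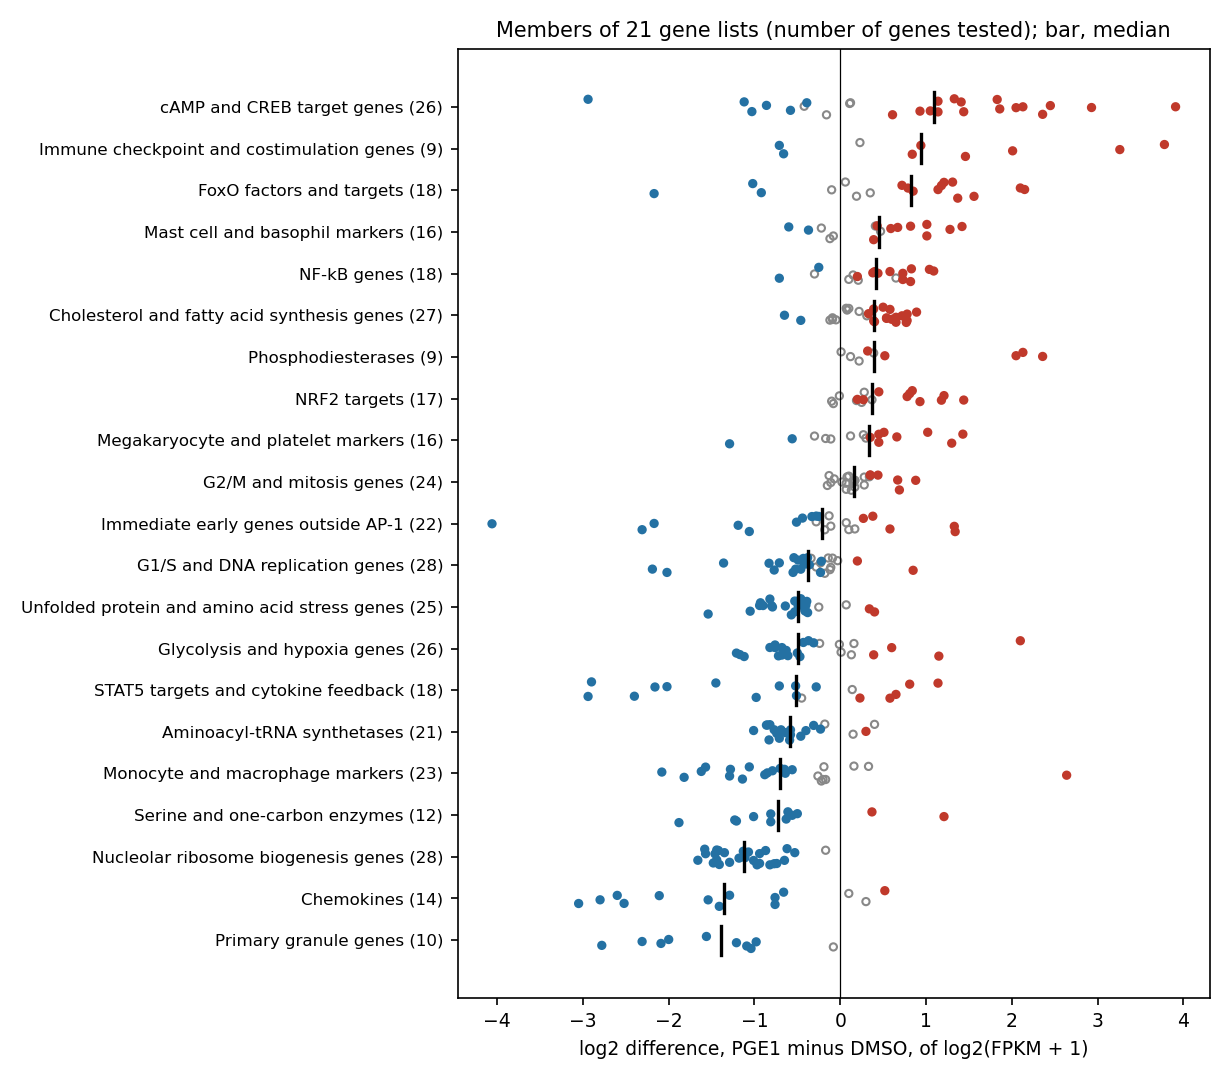
PGE1 minus DMSO difference of log2(FPKM + 1) for each tested member of 21 gene lists (filled red, rose; filled blue, fell; open, not called), with a black bar at each list's median and the number tested in brackets. Medians run from -1.39 for primary granule genes to 1.09 for cAMP and CREB target genes, and no nucleolar ribosome biogenesis gene lies above 0.

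Receptors for other signals also changed. Of 16 chemoattractant receptors 7 rose and 4 fell. S1pr1 and Ccr7 were the largest rises of this list, and C3ar1, a complement receptor, measured 11.5, 11.7 and 12.1 FPKM with DMSO and 2.61, 1.65 and 2.5 FPKM with PGE1, 5.21-fold less (log2 difference -1.98 ± 0.13, SE, adjusted p = 3.42e-05). S1pr3, a second sphingosine phosphate receptor, fell 8.45-fold. Of 25 cytokine receptors 10 rose and 4 fell: Il1r2, the decoy receptor of interleukin 1, measured 4.25, 5.02 and 4.8 FPKM with DMSO and 18.1, 22.7 and 18.7 FPKM with PGE1, 4.23-fold more (log2 difference 1.87 ± 0.10, SE, adjusted p = 1.87e-05), Ifngr1 rose 2.29-fold, and Il6st (gp130) fell 2.7-fold. Of 8 tested genes of the calcitonin family and other Gs-coupled receptors 3 rose and 5 fell. Against the rise of Ramp3, its relative Ramp1, which makes the CGRP receptor, measured 23.3, 16.5 and 19.3 FPKM with DMSO and 6.74, 4.79 and 5.98 FPKM with PGE1, 3.37-fold less (log2 difference -1.59 ± 0.15, SE, adjusted p = 0.000155). The Gs-coupled adenosine receptor Adora2b measured 7.47, 7.14 and 7.58 FPKM with DMSO and 1.6, 2.03 and 1.26 FPKM with PGE1, 4.53-fold less (log2 difference -1.68 ± 0.12, SE, adjusted p = 5.02e-05). Of 20 homing and adhesion genes 6 rose and 9 fell, among them Cxcr4, the marrow homing receptor (1.73-fold up), Esam (3.03-fold up) and Vcam1 (5.83-fold down). Of 16 heat shock genes none rose (1 without PGE1 replicate 1) and 7 fell, led by the mitochondrial chaperonin Hspd1 (1.87-fold).

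Sex-linked genes also differed. Xist, made from the inactive X of female cells, measured 9.05, 11.2 and 11.2 FPKM with DMSO and 8.14, 3.54 and 6.19 FPKM with PGE1 (log2 difference -0.78 ± 0.23, SE, adjusted p = 0.0281), a call lost without DMSO replicate 2, DMSO replicate 3 or PGE1 replicate 3. The Y-linked gene Uty measured 1.79, 2.5 and 2.08 FPKM with DMSO and 3.27, 3 and 3.57 FPKM with PGE1, 1.55-fold more (log2 difference 0.46 ± 0.12, SE, adjusted p = 0.0134). Of 9 sex-linked genes 4 rose (1 without DMSO replicate 1, 2 without PGE1 replicate 1 or 3) and 3 fell (1 without DMSO replicate 2, DMSO replicate 3 or PGE1 replicate 3). Besides Uty, the rises included the Y-linked genes Eif2s3y and Kdm5d. The falls were Xist and the X-linked genes Eif2s3x and Ddx3x. Xist and Uty were both detected in all 6 libraries, and the part of the balance between male and female cells in the other differences was not tested.

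PGE2, which differs from PGE1 by an additional double bond in its carboxyl side chain, was measured at the same dose and time in 2 libraries, against 3 for PGE1. Against the same 3 DMSO libraries, so with shared controls, 654 genes were called for PGE2 (5.81%), 114 higher (1.01%) and 540 lower (4.8%). The direct test of PGE1 minus PGE2, in a fit over the 8 DMSO, PGE1 and PGE2 libraries, called 6045 of the 11250 genes (53.7%), 3096 higher with PGE1 (27.5%) and 2949 lower (26.2%). With the PGE1 libraries in both comparisons, 261 of the 262 genes that rose past 2-fold were called higher with PGE1 than with PGE2 (99.6%), and 418 of the 472 that fell past 2-fold were called lower (88.6%). Their median log2 differences from DMSO were 1.31 with PGE1 and 0.03 with PGE2 for the first set, and -1.3 and 0.12 for the second. Pdcd1 measured 1.21 and 1.09 FPKM with PGE2, Peg10 4.96 and 3.73 FPKM and Dgat1 28.2 and 27.6 FPKM. PGE1 minus PGE2 was 3.2 (adjusted p = 2.68e-06) for Pdcd1, 3.07 (adjusted p = 7.51e-06) for Peg10 and 2.37 (adjusted p = 4.13e-06) for Dgat1. Fosb was at 88.5 ± 2.27 FPKM with PGE2 (SD, n = 2), and PGE1 minus PGE2 was -5.6 (adjusted p = 2.38e-09). Egr1, Fos, Mpo and Crem also differed between the compounds, by -4.8 (adjusted p = 1.21e-06), -0.98 (adjusted p = 0.000283), -2.86 (adjusted p = 0.000222) and 2.05 (adjusted p = 2.51e-05). Egr1 and Fos were higher with PGE2 than with DMSO, by 0.74 (adjusted p = 0.0304) and 0.92 (adjusted p = 0.00414). Among the 15 largest falls, Mmp13 and Perp were the ones for which PGE1 minus PGE2 did not pass the threshold: the difference was -0.064 (95% interval -0.29 to 0.162) for Mmp13 and 0.196 (95% interval -0.037 to 0.429) for Perp. Mmp13 measured 1.68 and 1.59 FPKM and Perp 3.55 and 2.68 FPKM with PGE2. Jund fell with PGE2 too, to 78.7 ± 3.25 FPKM, and PGE1 minus PGE2 was -0.45 (adjusted p = 0.00345).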

How the data were processed

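RNA was sequenced from sorted mouse leukemic stem cells treated with DMSO, PGE1 or PGE2. Reads were processed with CASAVA 1.8, TopHat and Cufflinks on mouse build mm9, per the submitters' processing notes. Not given in the sources used here: annotation, strand setting and read length. The authors deposited 1 table of FPKM per gene and library. FPKM is not a count, so tests used limma 3.58.1 (R 4.3.3) on log2(FPKM + 1) with a trend of variance on level, Benjamini-Hochberg adjustment over the 11250 genes whose mean reached 1 FPKM, and a threshold of 0.05. PGE1 against DMSO was fitted on its 6 libraries, and comparisons with PGE2 on 8.

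In each library the low values of all 19057 detected genes were whole multiples of 1 read (tolerance 0.0001 reads), which gave read totals of 21399594 to 22708474 for DMSO, 19513057 to 22002199 for PGE1 and 19042213 to 21766542 for PGE2, with 59.0 to 59.5% in the listed genes. The fit was also run on simulated data of 11250 genes with the same spread for every gene (negative binomial dispersion 0.02). It recovered 23.9% of 67 genes changed 1.5-fold, 86.6% of 67 changed 2-fold and 98.5% of 66 changed 4-fold. Of its 155 calls 16 were false, a larger share than the threshold of 0.05. In the data 5030 genes were called and the spread differed between genes, so these rates do not carry over.

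The comparison, the 58 gene lists (999 distinct genes matched, 4 entries unmatched) and the tests were chosen with earlier results of these data known. Genes were named as the 15 largest rises and falls (called, at least 5 FPKM in the higher group, no overlap between groups, no clone-type symbol), all prostanoid receptors, up to 4 members of each list by smallest p, and members that ran against their list. Elane, Hbb-b1, Odc1, Npm1, Slc18a2, Srm, Tgfbi, Fos, Nr4a2, Nr4a3, the clone-named genes and the lipid droplet genes were named after their values were seen. Alternatives were another pseudocount, no minimum and a stricter one, 2 other scalings, a replicate block, a robust fit, the 8-library fit and each library left out. Promoter windows came from RefSeq (GRCm38.p6) by symbol and carry no coordinates of the mm9 files.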

Additional observations from a re-analysis of the deposited data

How the results depend on the processing

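The number of genes called for PGE1 against DMSO stayed within 1.5 times of 5030 in all alternatives: 4986 with a pseudocount of 0.1, 5369 with no minimum, 3713 with a minimum of 5 FPKM, 5344 with quantile normalization (52.5% of them higher, against 48.1%), 5046 with median-of-ratios scaling, 5045 with a robust fit, 5511 in the 8-library fit, and 3749 (without DMSO replicate 2) to 5612 (without PGE1 replicate 2) with 1 library left out. For PGE1 against PGE2 the same settings gave 4520 to 6473, and 4227 to 6654 with 1 library left out. The labels do not say whether the replicate numbers pair the samples. Deviations of same-numbered DMSO and PGE1 libraries correlated at -0.14, -0.24 and 0.25 over genes. Those of differently numbered libraries correlated at -0.36 to 0.4, so the correlations cannot tell whether pairs exist. A replicate block gave 4302 calls, and 5296 for PGE1 against PGE2. Under the block the immediate early genes that rose went from 5 to 3 and the oxidative phosphorylation genes that fell from 6 to 3. Counts also went from 1 to 0 for chemokines that rose, and from 2 to 1 for NF-kB genes that fell, G1/S genes that rose, unfolded protein genes that rose and cholesterol genes that fell.

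Of 327 named genes that were called, 282 kept call and direction in every alternative that tested them, and 45 lost the call in at least 1. Named genes with a mean under 5 FPKM were not tested at the stricter minimum, and this was not counted as a loss. At a minimum of 5 FPKM the median of the cytokine and growth factor list turned from -0.52 to 0.12 and that of the stromal and endothelial list from 0.54 to -0.49, with fewer genes tested. With 1 library left out, Fos (-0.06, not called) ranged from -0.16 to 0.03 and turned sign without DMSO replicate 1 (0.02) or PGE1 replicate 1 (0.03), and Dgat2 (-0.12, not called) ranged from -0.28 to 0.05 and turned without PGE1 replicate 3. Genes with a few reads in the PGE1 libraries, such as Mmp10, Scimp and Stfa2, are limited by depth, and no fold is given for them.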
